A study of Homo sapiens with 6 samples.

Results

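Cohesin is the ring-shaped protein complex that holds sister chromatids together, and the 10 genes described here encode its subunits and the proteins that place it on chromosomes and take it off again. They were RAD21, SMC1A, SMC3, STAG1 and STAG2, the subunits of dividing body cells, SMC1B, REC8 and RAD21L1, the subunits best known from germ cells, and the regulators NIPBL and WAPL. The members were picked by gene name, and all 10 were found among the 33451 genes of the deposited table. RAD21L1 was chosen for its large fall in these libraries, so its values are given as a description with no test. MDA-MB-453 is an established breast cancer cell line of luminal character. The EG cells grew for 5 days in medium with 25(OH)D, a circulating vitamin D metabolite, at 100 nM, and the CG cells grew for the same time with alcohol as the solvent. EG is called 25(OH)D and CG control below, and mRNA of 3 libraries in each group was sequenced. The comparison asks which transcripts differ after culture with 25(OH)D, in 1 cell line, at 1 dose and at 1 time point.

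In the cohesin ring, an SMC1 and an SMC3 protein are joined at one end by a hinge and bridged at the other by a kleisin, which is RAD21 in mitotic cells. A STAG protein binds the kleisin. NIPBL loads the ring onto DNA and drives the extrusion of chromatin loops, whereas WAPL opens the ring and releases it. Germ cells entering meiosis use alternative parts, with SMC1B in place of SMC1A, REC8 or RAD21L1 in place of RAD21, and STAG3 in place of STAG1 and STAG2.

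The libraries held between 33268860 and 40928176 counts. The mitochondrial share of counts was 7.85% to 7.99% in control and 8.89% to 9.24% in 25(OH)D. All 9 luminal breast markers were read, at a summed level of 1153 to 1198 RPKM (counts scaled to the exon length of the gene and to the library total) in control and 1079 to 1098 RPKM in 25(OH)D. Of these 9, 5 were called higher and 3 lower (edgeR), beside 17.3% and 16.5% of all genes tested, with a median log2 fold change of 0.10. Among those called lower, GATA3 had the smallest p (log2 fold change -0.80). The basal markers KRT5, KRT14 and TP63 summed to 0.105 to 0.177 RPKM in control and 0.187 to 0.396 RPKM in 25(OH)D. At these levels TP63 was called lower (log2 fold change -2.84, adjusted p = 0.0019, edgeR), though not in limma on log2(RPKM + 1) (adjusted p = 0.1005). KRT5 and KRT14 went the other way. KRT5 was not called (log2 fold change 1.21, SE 0.686). KRT14 had a mean of 0.0419 RPKM in control and 0.181 RPKM in 25(OH)D, with no overlap, and had too few reads to be tested. Of the fibroblast markers only COL1A1 exceeded 0.1 RPKM, and of the leukocyte markers only CD68. CD68 was higher in 25(OH)D (2.29 ± 0.378 against 7.14 ± 1.39 RPKM, SD, n = 3 each, log2 fold change 1.69, adjusted p = 8.2e-07, edgeR), while RP11-186B7.4, which shares 81.7% of its exon bases, was lower (-0.13). Of 18183 genes tested, edgeR's quasi-likelihood test called 3004 lower (16.5%) and 3138 higher (17.3%) in 25(OH)D, at a Benjamini-Hochberg adjusted p under 0.05. With library sizes alone as the scaling, the calls were 3667 lower and 2689 higher. In bulk RNA, fewer cells that hold a transcript and less transcript per cell cannot be told apart.

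In the control cells, transcripts of the meiotic subunit SMC1B were as abundant per length as those of its mitotic counterpart SMC1A. SMC1B stood at 115 ± 3.43 RPKM (SD, n = 3) and SMC1A at 112 ± 2.29 RPKM (SD, n = 3), and their libraries overlapped. SMC1B ranked 377th of the 33451 genes by its mean RPKM in control and SMC1A ranked 388th. Above both stood SMC3 at 135 ± 3.08 RPKM and RAD21 at 143 ± 0.825 RPKM (SD, n = 3 each), which did not overlap with each other. WAPL (20.6 ± 0.235 RPKM) and STAG2 (20.3 ± 0.655 RPKM) followed, with overlapping libraries, and then NIPBL (14.9 ± 0.506 RPKM) and STAG1 (9.49 ± 0.209 RPKM). The meiotic kleisins were the least abundant members, RAD21L1 at 3.41 ± 0.582 RPKM and REC8 at 1.10 ± 0.136 RPKM. After 25(OH)D, SMC1B stood below SMC1A, which then overlapped with SMC3, and REC8 stood above RAD21L1.

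**Figure D1:**
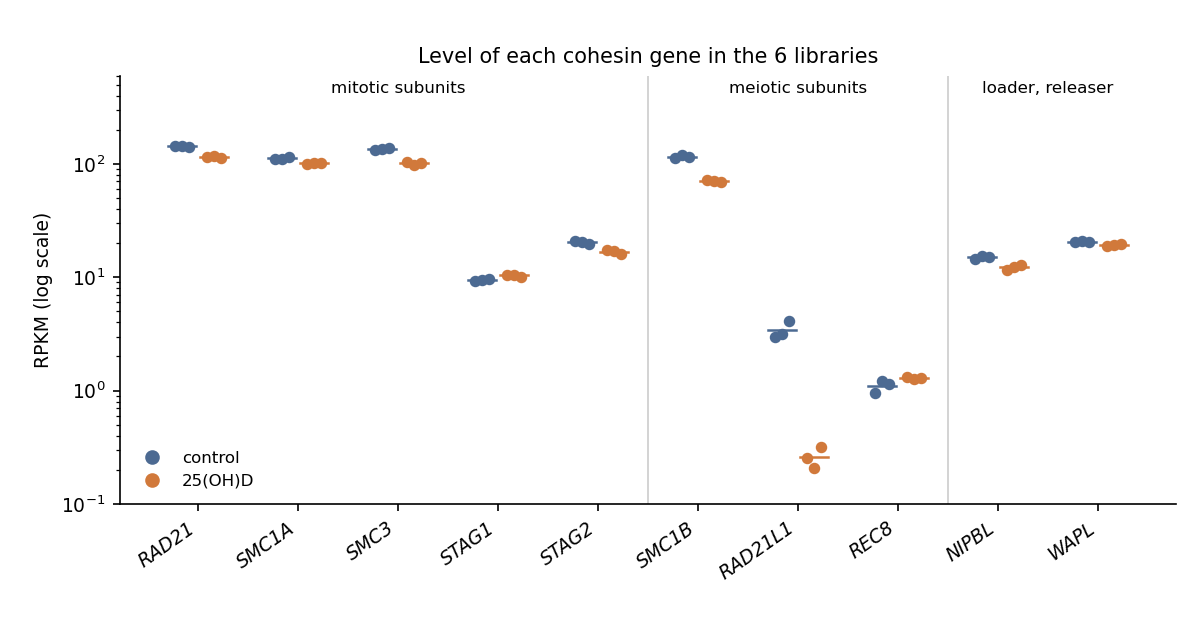
RPKM of the 10 genes on a log scale, with 1 point for each library and a line at the group mean of 3 libraries. SMC1B lies level with SMC1A in control (115 and 112 RPKM) and below it in 25(OH)D (70.3 and 101 RPKM), and RAD21L1 has the widest gap between the groups (3.41 and 0.261 RPKM).

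Leaving out RAD21L1, 6 of the other 9 members were lower in 25(OH)D, where 16.5% of all genes tested were called lower, and 1 was higher, where 17.3% were. Genes with more reads are called more often, and of the 5772 genes with a mean of at least 1000 counts, 25.9% were called lower and 27.5% higher. The 8 members with that many counts held all 7 of these calls. The median log2 fold change of the 9 members was -0.22, against -0.01 over all genes tested. The 2 groups did not overlap for any of the 9, where the same was true of 45.7% of all genes tested.

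SMC3, which pairs with either SMC1 protein, was read at 132, 136 and 137 RPKM in control and at 105, 98.2 and 102 RPKM in 25(OH)D. Every 25(OH)D library lay below every control library, and the level fell by 22.6% (log2 fold change -0.37, SE 0.0384, adjusted p = 3.5e-06, edgeR). A pseudogene copy, AC019097.1, shares 4.05% of the 100-base stretches of the SMC3 transcripts, so part of its reads could be placed on either. RAD21, the kleisin that closes the mitotic ring and is cut by separase at anaphase, was read at 143, 144 and 142 RPKM in control and at 114, 117 and 112 RPKM in 25(OH)D. Its groups were likewise apart, with a fall of 17.5% (log2 fold change -0.28, SE 0.0319, adjusted p = 9.9e-06, edgeR). RAD21 shares 361 exon bases with the antisense gene RAD21-AS1, which also fell (log2 fold change -0.51), and 518 with UTP23, which was not called (log2 fold change -0.13). SMC1A changed least of the ring subunits, from 111, 111 and 115 RPKM in control to 101, 102 and 102 RPKM. The fall of 7.06% (log2 fold change -0.11, SE 0.0322) had an adjusted p of 0.0206 in edgeR's test, and the call was lost when control replicate 2 (adjusted p = 0.0529), control replicate 3 (0.0907), 25(OH)D replicate 1 (0.0735) or 25(OH)D replicate 2 (0.101) was left out.

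The paired STAG genes, of which a mitotic ring carries one or the other protein, moved in opposite directions. STAG2 was read at 20.7, 20.6 and 19.5 RPKM in control and at 17.4, 17.2 and 15.96 RPKM in 25(OH)D, a fall of 14.4% (log2 fold change -0.22, SE 0.0442, adjusted p = 0.0012, edgeR). STAG1 was read at 9.28, 9.51 and 9.70 RPKM in control and at 10.5, 10.5 and 10.1 RPKM in 25(OH)D. STAG1 was the only member called higher, by 12.6% (log2 fold change 0.17, SE 0.0460, adjusted p = 0.0099, edgeR). On the scale of log2(RPKM + 1) its difference was 0.12 and the call was lost (adjusted p = 0.0612, limma). STAG1 shares 1664 of its 7846 exon bases, on the opposite strand, with PCCB, a gene of propionate metabolism whose log2 fold change of 0.12 was not called. The share of STAG1 in the RPKM of both STAG genes rose in the 25(OH)D libraries, from 31.0%, 31.6% and 33.2% in control to 37.6%, 38.0% and 38.8%. The means were 31.9% ± 1.15 and 38.1% ± 0.639 (SD, n = 3 each), a difference of 6.22 percentage points that was larger than the spread within either group. The two-sided exact permutation test gave p = 0.1, which is the smallest p that 3 libraries against 3 allow, so no comparison of this kind could pass 0.05 here.

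SMC1B, the SMC1 protein that joins chromosome axes in meiosis, showed the largest change of the 9 members with a test. It was read at 112, 119 and 115 RPKM in control and at 72.0, 69.9 and 68.8 RPKM in 25(OH)D. No 25(OH)D library came near the control range, and the level fell by 37.0% (log2 fold change -0.67, SE 0.0376, adjusted p = 5.4e-09, edgeR). The gene lies on chromosome 22 (GRCh38, chr22:45344063-45413619, minus strand), shares no exon base with another gene of the table, and none of the 4250 stretches of 100 bases in its transcripts occurs in another gene. The share of SMC1B in the RPKM of SMC1A and SMC1B was 50.1%, 51.6% and 49.9% in control and 41.7%, 40.8% and 40.3% in 25(OH)D. The mean share moved from 50.6% ± 0.922 to 40.9% ± 0.709 (SD, n = 3 each), by -9.63 percentage points, with an exact permutation p of 0.1, again the smallest possible. SMC3 relative to the sum of SMC1A and SMC1B stayed within 59.1% to 59.8% in control and 57.3% to 60.6% in 25(OH)D, and these ranges overlapped.

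The sequences around the start sites of the meiotic genes are shown because E2F6 and its partners in a Polycomb complex are known, mostly from mouse cells, to silence several of them outside the germ line. Each window runs from 180 bases before the annotated start to 30 bases from the start onward (RefSeq, GRCh38.p14), 5′ to 3′ on the strand of the gene. Capitals mark a match, on either strand, to TTCCCGC, the core of E2F binding sites, or to CACGTG, the E-box. SMC1A, the mitotic counterpart, is given for comparison. SMC1A and STAG3 each have another annotated start, not shown here, whose 300-base promoter holds no TTCCCGC. The windows are chr22:45413570-45413779 (minus) for SMC1B, chr14:24171900-24172109 (plus) for REC8, chr7:100177738-100177947 (plus) for STAG3, chr20:1225864-1226073 (plus) for RAD21L1 and chrX:53422625-53422834 (minus) for SMC1A.
SMC1B: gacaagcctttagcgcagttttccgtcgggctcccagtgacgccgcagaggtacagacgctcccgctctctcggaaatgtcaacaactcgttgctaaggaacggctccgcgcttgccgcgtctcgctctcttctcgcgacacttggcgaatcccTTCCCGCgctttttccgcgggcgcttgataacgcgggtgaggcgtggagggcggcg
REC8: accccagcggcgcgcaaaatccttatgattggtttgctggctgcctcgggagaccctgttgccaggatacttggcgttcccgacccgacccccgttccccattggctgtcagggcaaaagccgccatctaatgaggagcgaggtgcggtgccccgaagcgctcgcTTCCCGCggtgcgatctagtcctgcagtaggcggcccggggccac
STAG3: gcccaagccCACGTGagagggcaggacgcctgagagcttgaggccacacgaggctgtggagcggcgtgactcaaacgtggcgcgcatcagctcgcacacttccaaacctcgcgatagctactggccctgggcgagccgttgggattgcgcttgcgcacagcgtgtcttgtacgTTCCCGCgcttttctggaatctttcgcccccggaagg
RAD21L1: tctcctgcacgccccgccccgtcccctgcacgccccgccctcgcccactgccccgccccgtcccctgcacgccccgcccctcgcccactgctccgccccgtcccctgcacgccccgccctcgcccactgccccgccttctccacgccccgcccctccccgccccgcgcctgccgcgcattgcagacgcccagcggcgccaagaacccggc
SMC1A: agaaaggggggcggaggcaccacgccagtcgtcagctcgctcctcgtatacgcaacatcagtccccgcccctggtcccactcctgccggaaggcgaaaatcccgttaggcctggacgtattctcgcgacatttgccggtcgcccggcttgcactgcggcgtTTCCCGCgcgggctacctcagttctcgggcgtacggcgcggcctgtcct

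The letters TTCCCGC were found in the 300-base promoters of 4 of the 9 members that matched the table (REC8, SMC1A, SMC1B and STAG1, but not RAD21L1, while RAD21 did not match). Some members have more than 1 promoter in the table, and the match was in 4 of 12. Over the whole table they occurred in 6.55% of 35116 promoters and, in at least 1 promoter, in 7.82% of 27305 genes. In SMC1B they start 26 bases before the gene's start, and the longer run TTCCCGCGCTTTT occurs there and, 7 bases before the start, in the promoter of STAG3. CACGTG occurred in no member, though in STAG3, and in 7.26% of all promoters. The DR3 element, the direct repeat bound by the vitamin D receptor, searched by its consensus letters without mismatches, occurred in no member and in 2 of the 35116 promoters. The 4 members with TTCCCGC included 2 that fell (SMC1A and SMC1B), 1 that rose (STAG1) and 1 that was not called (REC8). A match describes the letters only.

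REC8, the kleisin that keeps sister centromeres joined through the first meiotic division, was read at low levels, with 150, 174 and 160 counts in control and 181, 188 and 165 in 25(OH)D. In RPKM these were 0.953, 1.22 and 1.14 against 1.31, 1.26 and 1.29. All 25(OH)D libraries were above all control libraries in RPKM, yet the log2 fold change of 0.27 (SE 0.139) did not pass the test (adjusted p = 0.162, edgeR). The share of REC8 in the RPKM of RAD21 and REC8 was 0.663%, 0.840% and 0.797% in control and 1.14%, 1.06% and 1.14% in 25(OH)D. The means were 0.767% ± 0.0922 and 1.11% ± 0.0447 (SD, n = 3 each), apart by 0.348 percentage points (exact permutation p = 0.1). STAG3, the meiotic partner of these kleisins, was read at 1.58 ± 0.112 RPKM in control and 1.45 ± 0.0688 RPKM in 25(OH)D, with overlapping libraries (log2 fold change -0.08, SE 0.0888, adjusted p = 0.547, edgeR). STAG3 shares 1606 exon bases with PVRIG on the same strand, so its low counts are uncertain.

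**Figure D2:**
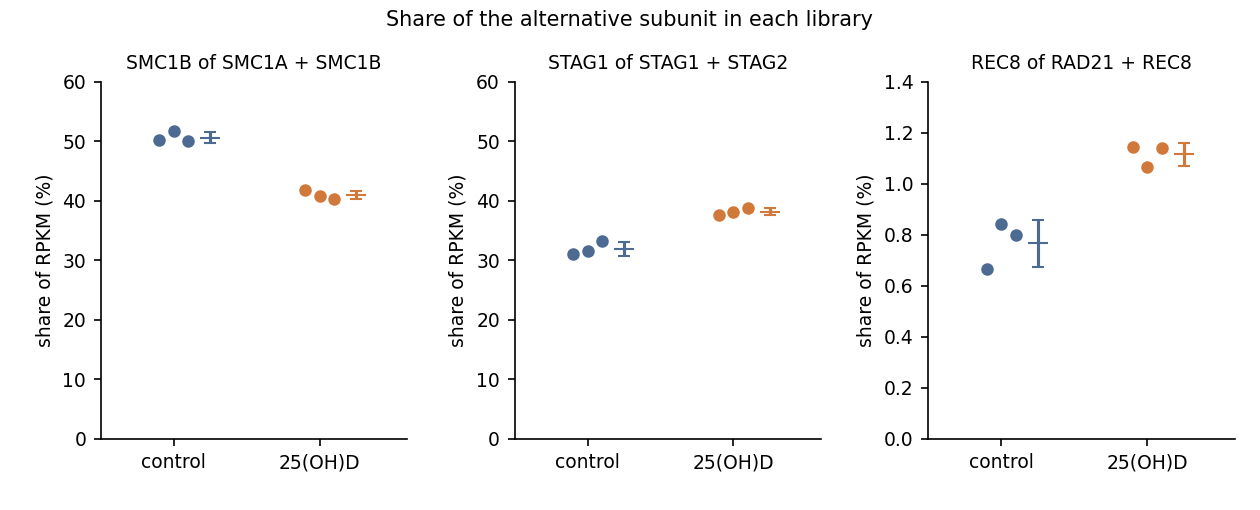
Share, in percent of the RPKM of the genes named above each panel, held by SMC1B, STAG1 and REC8. Points are libraries, and the marks beside them give the mean and SD of 3 libraries; the share of SMC1B falls from 50.6% to 40.9%, and those of STAG1 (31.9% to 38.1%) and REC8 (0.767% to 1.11%) are higher in 25(OH)D, with no overlap in any panel.

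NIPBL, the loader, was read at 14.4, 15.4 and 15.1 RPKM in control and at 11.7, 12.2 and 12.7 RPKM in 25(OH)D. The groups were apart and the level fell by 15.9% (log2 fold change -0.25, SE 0.0449, adjusted p = 5.6e-04, edgeR). WAPL, the release factor, was read at 20.4, 20.8 and 20.5 RPKM in control and at 19.0, 19.2 and 19.5 RPKM in 25(OH)D. Its libraries did not overlap either, but the log2 fold change of -0.05 (SE 0.0389) did not pass the test (adjusted p = 0.315, edgeR). MAU2, the partner of NIPBL in the loader, was not called (log2 fold change -0.06, SE 0.0782). PDS5A and PDS5B, which hold WAPL or its antagonist on the ring, were not called either (log2 fold changes -0.02, SE 0.0416, and 0.04, SE 0.0397).

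**Figure D3:**
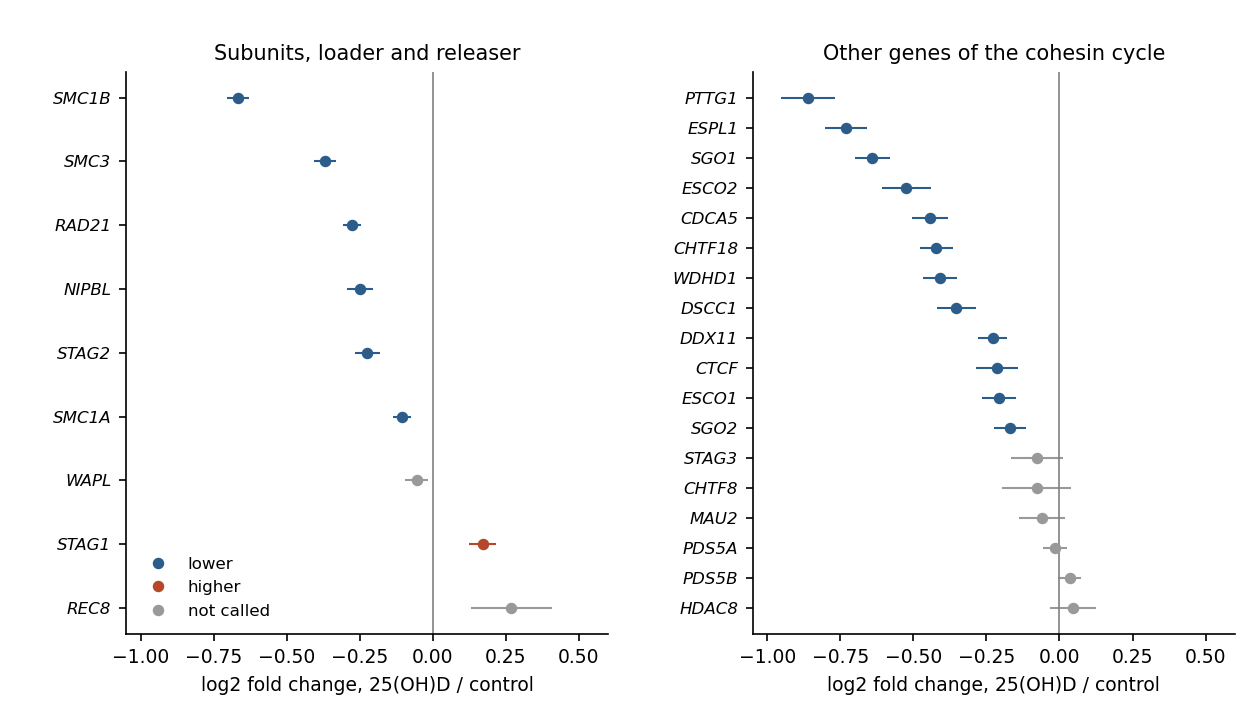
Log2 fold change of 25(OH)D over control with its SE from the edgeR fit to 6 libraries, for 9 members on the left and 18 other genes of the cohesin cycle on the right. Blue marks a gene called lower and red a gene called higher; SMC1B (-0.67) and PTTG1 (-0.86) lie farthest to the left, and STAG1 (0.17) is the only gene in red.

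RAD21L1, the kleisin of early meiotic prophase, had 334, 322 and 406 counts in control and fell to 25, 22 and 29 counts in 25(OH)D. In RPKM the level was 2.99, 3.17 and 4.08 in control and 0.256, 0.208 and 0.319 in 25(OH)D, which is 0.0786 times the control level in the fit (log2 fold change -3.67, SE 0.197). The groups were far apart, and this fall is what the gene was picked for. RAD21L1 spans chr20:1226056-1296421 on the plus strand of GRCh38, and it overlaps SNPH, which encodes syntaphilin, an anchor of mitochondria in axons, on the same strand at chr20:1266316-1309328. Of the 17 separate exon blocks of RAD21L1 in the table, the last 2 (chr20:1266654-1266760 and chr20:1296325-1296421) lie wholly inside exons of SNPH. They hold 204 of the 2730 exon bases of RAD21L1 (7.47%), and the same 204 are 3.66% of the 5574 exon bases of SNPH. SNPH had 1956, 1914 and 1912 counts in control and 140, 166 and 153 in 25(OH)D (log2 fold change -3.52, SE 0.0829, given here with no test because of the shared bases).

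The counts of RAD21L1 kept a similar size relative to those of SNPH in both groups. RAD21L1 counts came to 17.1%, 16.8% and 21.2% of the SNPH counts in control and to 17.9%, 13.3% and 19.0% in 25(OH)D. The means of 18.4% ± 2.48 and 16.7% ± 3.03 (SD, n = 3 each) lie within the spread, and the ranges overlap. The table gives counts per gene and not per exon, so how many RAD21L1 counts fell in the 204 shared bases was not tested. In this table, genes whose exons lie wholly inside another gene's exons on the same strand still had counts, with at least 10 in all in 269 of 326 such genes (82.5%). Any read counted for a gene nested on the same strand also overlapped its host, so reads in shared bases were not all discarded. For genes nested on the opposite strand only, the share was 80.6%, and neither share is specific to RAD21L1. Of the genes near RAD21L1, PSMF1, a proteasome inhibitor, fell (log2 fold change -0.34, SE 0.0546, adjusted p = 2.3e-04, edgeR) and FKBP1A, the FK506 binding protein, rose (0.28, SE 0.0748, adjusted p = 0.0103), though not on the scale of log2(RPKM + 1) (adjusted p = 0.0504, limma). Within 100 kb the other tested genes, ACTG1P3, TMEM74B, SDCBP2, RP11-314N13.10 and SDCBP2-AS1, were not called.

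**Figure D4:**
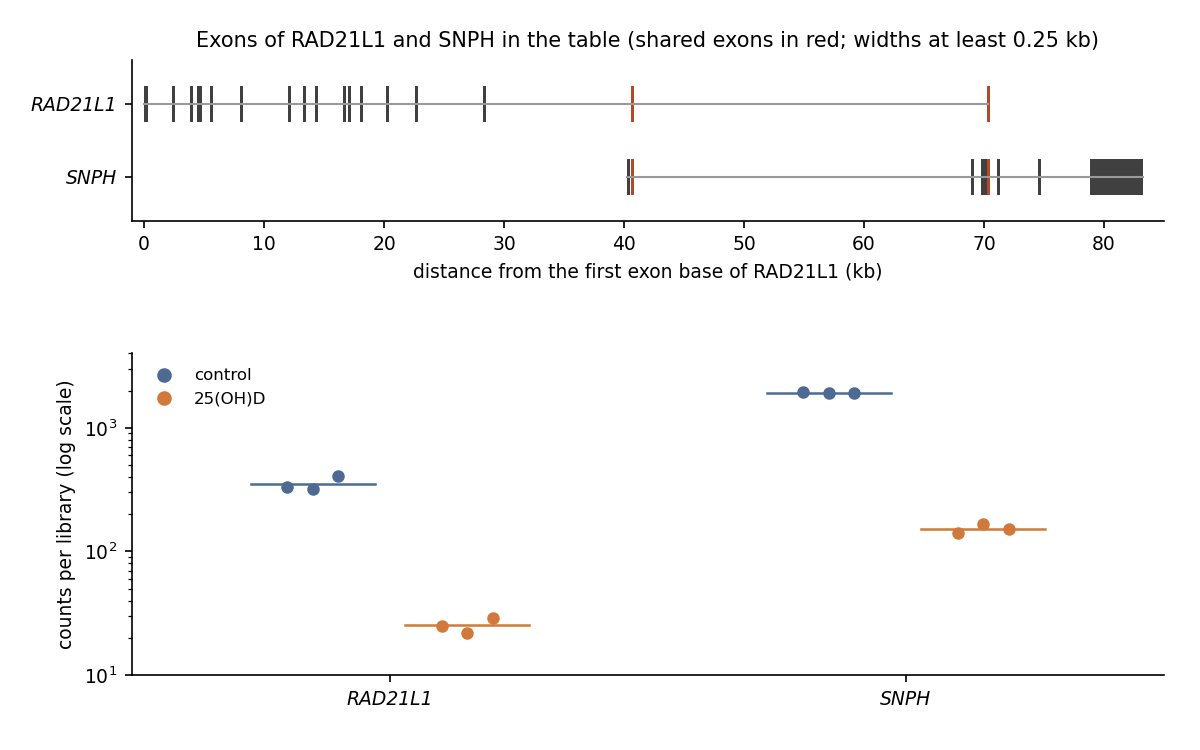
Top, exons of RAD21L1 and SNPH in kb from the first exon base of RAD21L1, with the 2 shared exon blocks in red. Bottom, counts of both genes on a log scale in the 3 control and 3 25(OH)D libraries, with lines at the means; RAD21L1 goes from 322 to 406 counts down to 22 to 29, and SNPH from 1912 to 1956 down to 140 to 166.

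Of 18 other genes that act on cohesin, 12 were lower, none was higher and 6 were not called, where 16.5% of all genes tested were called lower and 17.3% higher. The log2 fold changes of the 18 had a median of -0.22, against -0.01 over all genes tested. The largest falls were in genes that open or guard the ring at anaphase. PTTG1, the securin that holds separase back, went from 11.6 ± 0.816 to 6.21 ± 0.738 RPKM (SD, n = 3 each), and the log2 fold change was -0.86 (SE 0.0921, adjusted p = 4.7e-06, edgeR). ESPL1, which is separase, had a log2 fold change of -0.73 (SE 0.0712). SGO1, the shugoshin that shields centromeric cohesin, had one of -0.64 (SE 0.0599) and shares 679 exon bases with the antisense gene SGO1-AS1, which fell as well (-0.60). SGO2, its paralog, fell by 0.17 on the log2 scale (SE 0.0545, adjusted p = 0.0264, edgeR) and lost the call without any one of 5 of the 6 libraries (adjusted p between 0.0547 and 0.151).

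The other genes of this list act in large part at DNA replication. ESCO2, the acetyltransferase of S phase that locks SMC3, went from 2.58 ± 0.0234 to 1.74 ± 0.167 RPKM (log2 fold change -0.52, SE 0.0828). ESCO1, which acts through the whole cell cycle, had a smaller fall (log2 fold change -0.21, SE 0.0574, adjusted p = 0.0119, edgeR), and its call was lost without 25(OH)D replicate 2 (adjusted p = 0.0591) or replicate 3 (0.0560). CDCA5 (sororin, which counters WAPL) had a log2 fold change of -0.44, and CHTF18 (-0.42), DSCC1 (-0.35) and WDHD1 (-0.41), of the replication fork, were lower too. The helicase DDX11 (-0.23) has near-identical copies in the genome, and its counts are uncertain. HDAC8, which removes the acetyl mark from SMC3 (0.05, SE 0.0784), and CHTF8 (-0.08, SE 0.118) were not called. CTCF, the DNA-binding protein at which cohesin stops, was read at 61.0, 52.1 and 51.7 RPKM in control and at 43.4, 43.0 and 51.4 RPKM in 25(OH)D. Of these, 1 25(OH)D library came within 1 RPKM of the control range, and with the library scaling of the fit the groups overlapped. CTCF was called lower (log2 fold change -0.21, SE 0.0723, adjusted p = 0.0347, edgeR). The call was lost without control replicate 1 (adjusted p = 0.170), 25(OH)D replicate 1 (0.146) or 25(OH)D replicate 2 (0.171), in DESeq2 (0.199) and in limma on log2(RPKM + 1) (0.0747).

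Condensin and the SMC5/6 complex are built on related SMC proteins. Of 8 condensin subunits, which compact mitotic chromosomes, 7 were lower and none higher, beside 16.5% and 17.3% of all genes tested. Their log2 fold changes had a median of -0.37, and NCAPD2 had the smallest p (-0.61, SE 0.0514). Of 9 genes of the SMC5/6 complex, which acts in DNA repair, 8 were tested. Among these SMC5 was higher (log2 fold change 0.18, SE 0.0515, adjusted p = 0.0127, edgeR) but not without 25(OH)D replicate 2 (adjusted p = 0.0632), with library sizes alone (0.0570) or in limma on log2(RPKM + 1) (0.0970), and SLF2 (-0.17) and SMC6 (-0.13) were lower. SLF2 lost the call without 25(OH)D replicate 1 (adjusted p = 0.0505), and SMC6 without any one of 4 libraries (adjusted p between 0.0519 and 0.143). The median of the 8 was -0.11. Whether the lists differ from one another was not tested. Of 11 markers of cycling cells, 10 were lower, beside 16.5% of all genes tested, with a median of -0.45 and the smallest p in TOP2A (-0.77, SE 0.0473), a topoisomerase of mitotic chromosomes. The cycling markers thus moved in the same direction as most cohesin genes, and their part in the falls of the cohesin genes was not tested.

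Of 27 other genes of meiotic chromosomes, 19 were listed in the table and 6 had enough reads to be tested, of which 3 were lower and none higher, beside 16.5% and 17.3% of all genes tested. SYCP2, a protein of the axis that cohesin builds in meiosis, was the most abundant at 65.4 ± 2.23 RPKM in control and 57.5 ± 0.748 RPKM in 25(OH)D (log2 fold change -0.14, SE 0.0376, adjusted p = 0.0086, edgeR). Its call was lost without control replicate 2 (adjusted p = 0.0648) or 25(OH)D replicate 2 (0.0596). SYCE2, of the central element of the synaptonemal complex, went from 18.4 ± 0.710 to 10.7 ± 0.762 RPKM (log2 fold change -0.73, SE 0.0751, adjusted p = 3.0e-06, edgeR). It shares 352 of its 1458 exon bases, on the opposite strand, with GCDH, which was not called (-0.12). MSH5 (-0.35) shares 2946 exon bases with the readthrough gene MSH5-SAPCD1, and its call was lost without any one of 4 libraries (adjusted p between 0.0688 and 0.126) and in limma on log2(RPKM + 1) (0.0539). SYCP3, the partner of SYCP2 in the axis, stood at 0.194 ± 0.0245 RPKM in control and 0.299 ± 0.0264 RPKM in 25(OH)D and was not called (log2 fold change 0.66, SE 0.290). SYCP3 shares 566 of its 3829 exon bases, on the opposite strand, with CHPT1, which was called higher (0.83). The 4 genes of the Polycomb complex named above, PCGF6 (0.11, SE 0.0893), L3MBTL2 (-0.09, SE 0.0587), MGA (-0.07, SE 0.0742) and E2F6 (0.03, SE 0.0914), were not called in either direction.

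**Figure D5:**
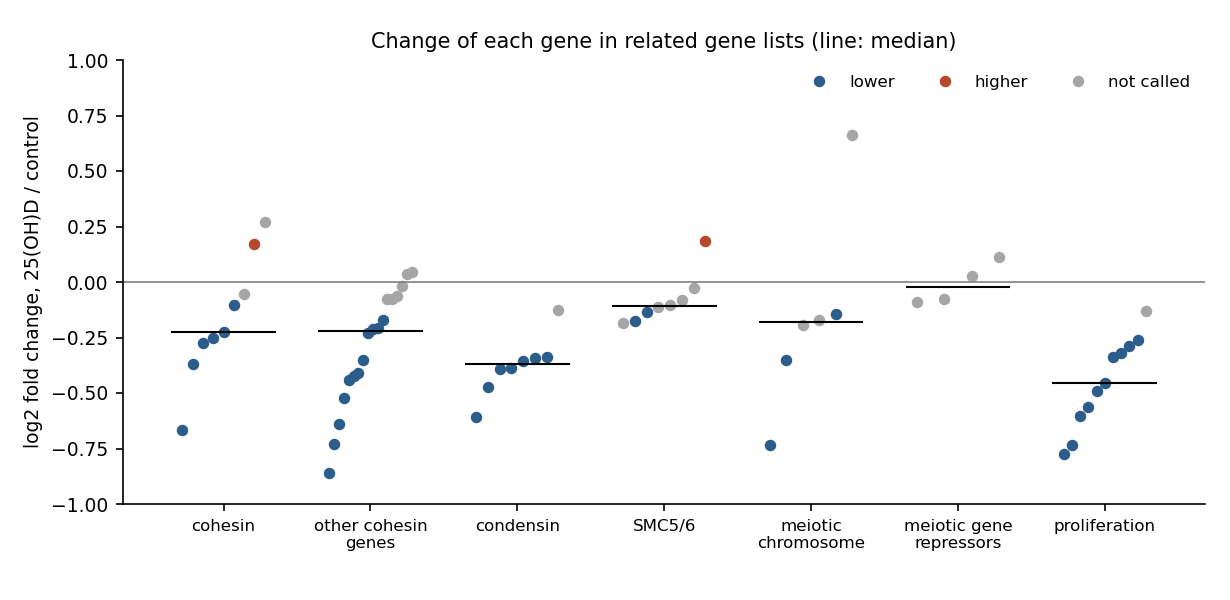
Log2 fold change of 25(OH)D over control for each tested gene of 7 lists, with 1 point a gene, coloured by its call, and a line at the median of the list. The 9 cohesin members (RAD21L1 left out) have a median of -0.22, condensin -0.37, the SMC5/6 complex -0.11 and the markers of proliferation -0.45.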

How the data were processed

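mRNA of 6 libraries of MDA-MB-453 cells was analysed, 3 control and 3 cultured with 25(OH)D, grouped by the sample labels. Biological replicates are stated in the methods of the study, which do not say that they were separate cultures, so p-values measure the spread between these libraries. The authors deposited a table of counts per gene, without normalization, and a table of RPKM values, which equalled the count divided by the exon length and the library total. The submitters' processing notes name Trimmomatic 0.36, featureCounts, Subread 1.5.1, edgeR 3.12.1 and GRCh38. The aligner, the annotation release and the strand setting of the counting are not given in the sources used here. Those sources also do not state whether reads in bases that genes share were counted for each gene. Genes nested wholly in exons of the opposite strand held at least 10 counts in 80.6% of cases and those nested on the same strand in 82.5%. Where the host gene had at least 5 RPKM, nested genes stood at a median of 54.6% of its RPKM on the opposite strand and 22.4% on the same strand, and these values do not settle the strand setting. Reads in bases that genes share are therefore given as uncertain.

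The counts were fitted in R 4.3.3 with edgeR 4.0.16, with TMM factors and its low-count filter (10 counts). EG was compared with CG by the quasi-likelihood test, adjusted by Benjamini-Hochberg over 18183 genes. Totals of 33268860 to 40928176 counts limit the precision of low counts. For shares of RPKM, a two-sided exact permutation test over libraries was used. Exon overlaps were read from the deposited exon positions, shared stretches of 100 bases from GENCODE 29 transcripts and promoters from RefSeq (GRCh38.p14). The alternatives used DESeq2 1.42.0 and limma 3.58.1 on log2(RPKM + 1) and log2(RPKM + 0.1), other scalings, no filter on low counts, the replicate number as a block and each library left out in turn. The members and gene lists were chosen with earlier results of these data known. The text names the members, SNPH, the 18 other cohesin genes, genes sharing exon bases with them, genes within 100 kb of RAD21L1, its 3 nearest profiles and, of each other list, the gene with the smallest p in each direction. One gene that this rule names is not reported. SYCP2, SMC6, MSH5, MGA and E2F6 were named after their values were seen.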

Additional observations from a re-analysis of the deposited data

How the results depend on the processing

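Of the 9 members tested, 6 or 7 were called under each of the 14 alternatives, and the count of all genes called lay between 5091 and 6356 against 6142. Without 1 library the members called were 6 to 7 and all genes called 5091 to 5697. No scaling shifted the median of all genes by more than 0.06 on the log2 scale. SMC1A lost its call without any one of 4 libraries and STAG1 with limma on either RPKM scale, while RAD21, SMC3, STAG2, SMC1B and NIPBL were called under every alternative run. The differences in share ranged, without 1 library, from -10.0 to -9.10 points for SMC1B, 5.75 to 6.86 for STAG1 and 0.296 to 0.385 for REC8. Computed on counts in place of RPKM they were -7.38, 6.14 and 0.218 points.

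Genes that were not called changed sign in some settings. Without 1 library, PDS5A ranged from -0.0301 to 0.0111 and CHTF8 from -0.240 to 0.0220 on the log2 scale. PDS5B was at -0.0063 with upper-quartile factors, -0.0085 with library sizes alone, -0.0076 on log2(RPKM + 1) and -0.0080 on log2(RPKM + 0.1), and HDAC8 at -0.00040 and -0.0011 on these last scales. The cause was not tested.

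Deviations of libraries with the same replicate number correlated at -0.07, -0.01 and -0.05, so the numbers were not treated as pairs. With the replicate number as a block, 7 members and 5953 genes were called, and the shares gave p = 0.25, the smallest exact p of 3 pairs. REC8 and RAD21L1, with 22 to 406 counts a library, are limited by depth.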

Other observations

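Over the 6 libraries, the profiles nearest to that of RAD21L1 among 14898 genes with a mean of at least 1 CPM were those of SNPH, XDH and RP11-6C14.1, by the root mean square distance of centred log2 CPM (0.186, 0.268 and 0.280). XDH, which encodes xanthine dehydrogenase, had 175, 148 and 164 counts in control and 10, 14 and 18 in 25(OH)D. RP11-6C14.1 had 396, 361 and 288 counts in control and 24, 27 and 24 in 25(OH)D. Neither lies on chromosome 20. These genes were picked for their likeness to a gene chosen for its fall, so their falls are a description.

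STAG2 shares 241 exon bases on the opposite strand with TENM1, a teneurin, which moved the other way. TENM1 had 46, 52 and 38 counts in control and 170, 172 and 148 in 25(OH)D (log2 fold change 1.98). RIBC1, which shares 39 bases with SMC1A, was lower (log2 fold change -0.38), and IPO4, which shares 39 with REC8, was not called (-0.05).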
